A study of Mus musculus with 6 samples.

Results

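Ribosome biogenesis is the building of ribosomes in the nucleolus. RNA polymerase I transcribes the ribosomal RNA precursor, small nucleolar RNA (snoRNA) particles modify it, and assembly factors cut and fold it while ribosomal proteins join the small and the large subunit. Many of the genes for these factors are known targets of the transcription factor MYC, which selected germinal centre B cells induce before they divide again. The 46 genes described here were taken by symbol from 23420 genes, as nucleolar factors and RNA polymerase I genes of the MYC-target type, and were set beside the cytosolic ribosomal protein genes. All 46 were found and all passed the filter on low values.

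Bulk RNA libraries were made from sorted splenic germinal centre B cells, which divide and diversify their antibody genes in response to antigen. Mice had been given NP-KLH, a protein carrying a small hapten, 10 days before their cells were taken. The 3 KO libraries came from BASP1 fl/fl hCD20TamCre mice and the 3 WT libraries from BASP1 +/+ hCD20TamCre mice, so both groups carried the tamoxifen-activated Cre and both received 1 mg tamoxifen on day 5, day 7 and day 9. The Cre is known to act in B cells in general and not only in those of the germinal centre, and tamoxifen was first given after immunization. Basp1 encodes a membrane-associated protein that is also known as a transcriptional co-repressor. The labels do not say whether each library was 1 mouse, so p-values measure only the spread between these libraries. The ages of the mice are not known from the labels.

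Each file held log2 CPM (counts scaled to a common library total) with nearly 1 distribution in all libraries, and the depth in reads is unknown. The sum of the KO and the WT value with the same replicate number was equal over the 3 numbers for each gene to within 0.001. What can be compared is therefore the KO minus WT difference within each number, called a pair here, and a fold change below is the mean of 3 such log2 differences ± SD (n = 3 pairs). Because the sums are equal, KO and WT libraries mirror each other and each group has the same SD. Basp1 was at 9.65, 7.27 and 9.39 CPM in KO libraries, against 44.8, 59.5 and 46.05 CPM in WT libraries, a log2 fold change of -2.51 ± 0.45 (limma adjusted p = 3.3e-16). All 12 markers of germinal centre B cells were present, between 184 and 2976 CPM in single libraries. Their sum was lower in each KO library (11717 to 11947 CPM) than in each WT library (12246 to 12501 CPM). None of the 12 passed 5% FDR by limma, 10 had a negative mean difference with a median of -0.070 over the 12, and 4 were lower at an unadjusted p under 0.05. The 6 plasma cell markers found summed to between 1215 and 1329.5 CPM in KO and between 1201 and 1316 CPM in WT. Such sums mostly reflect the highest genes. Of the 4 plasma cell markers tested, 3 were positive and 1 negative, with a median of 0.30 on the log2 scale. At an unadjusted limma p under 0.05, 2 of them were higher, and 0 passed 5% FDR. The 6 naive and follicular B cell markers summed to between 322 and 411 CPM in KO and between 304 and 387 CPM in WT. Their sum was higher in KO in pair 2, at 411 against 304 CPM, and lower in pairs 1 and 3. Over the 6 genes the median differences were -0.30, 0.54 and -0.31 in pairs 1 to 3. The 8 T cell markers found summed to between 4.64 and 5.63 CPM in KO and between 4.46 and 5.08 CPM in WT libraries, with Cd3e at the lowest value of the files in all 6. The 8 myeloid markers summed to between 8.31 and 11.5 CPM in KO and between 10.3 and 14.2 CPM in WT, and the 7 erythroid and platelet markers to between 2.05 and 3.48 CPM in KO and between 1.33 and 3.12 CPM in WT. In such bulk samples fewer cells of a type and less RNA per cell cannot be told apart.

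The comparison of KO with WT asked whether the genes for ribosome assembly differed in germinal centre B cells with floxed Basp1. None of the 46 passed 5% FDR over the 10133 genes tested, against 27 genes in all (0.266%, 17 higher and 10 lower). At an unadjusted p under 0.05 there were 5 members (10.9%), against 8.82% of all genes tested, with Polr1b, Grwd1 and Heatr1 higher and Ncl and Ppan lower. The mean fold changes of the 46 lay between -0.23 for Ppan and 0.26 for Polr1b on the log2 scale, which is 0.852 to 1.201 times the WT level. Their median was -0.0080, beside 0.0037 for all genes tested, with 22 members positive and 24 negative. In size, 32 of the 46 mean differences were under 0.1 on the log2 scale and 43 under 0.2. The limma 95% intervals of all 46 lay within 0.5 in size, from -0.40 to 0.46, so that a change of 0.5 or more in either direction lies outside each of them. Their width rests mostly on the spread of other genes, with a median of 81.2 prior against 2 residual degrees of freedom. Each interval holds for 1 gene and not for the 46 together. The median half-width of these intervals was 0.17.

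The count of 27 genes over the whole table changed in both directions when a replicate number was left out. It was 136 without number 1, 11 without number 2 and 99 without number 3. The count of 0 members became 1 without number 3, where Ncl was called (-0.29, limma adjusted p = 0.0331), and remained 0 without number 1 or number 2. With all 3 numbers the lowest limma adjusted p of a member was that of Ncl, 0.236, and the highest was 0.993.

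**Figure D1:**
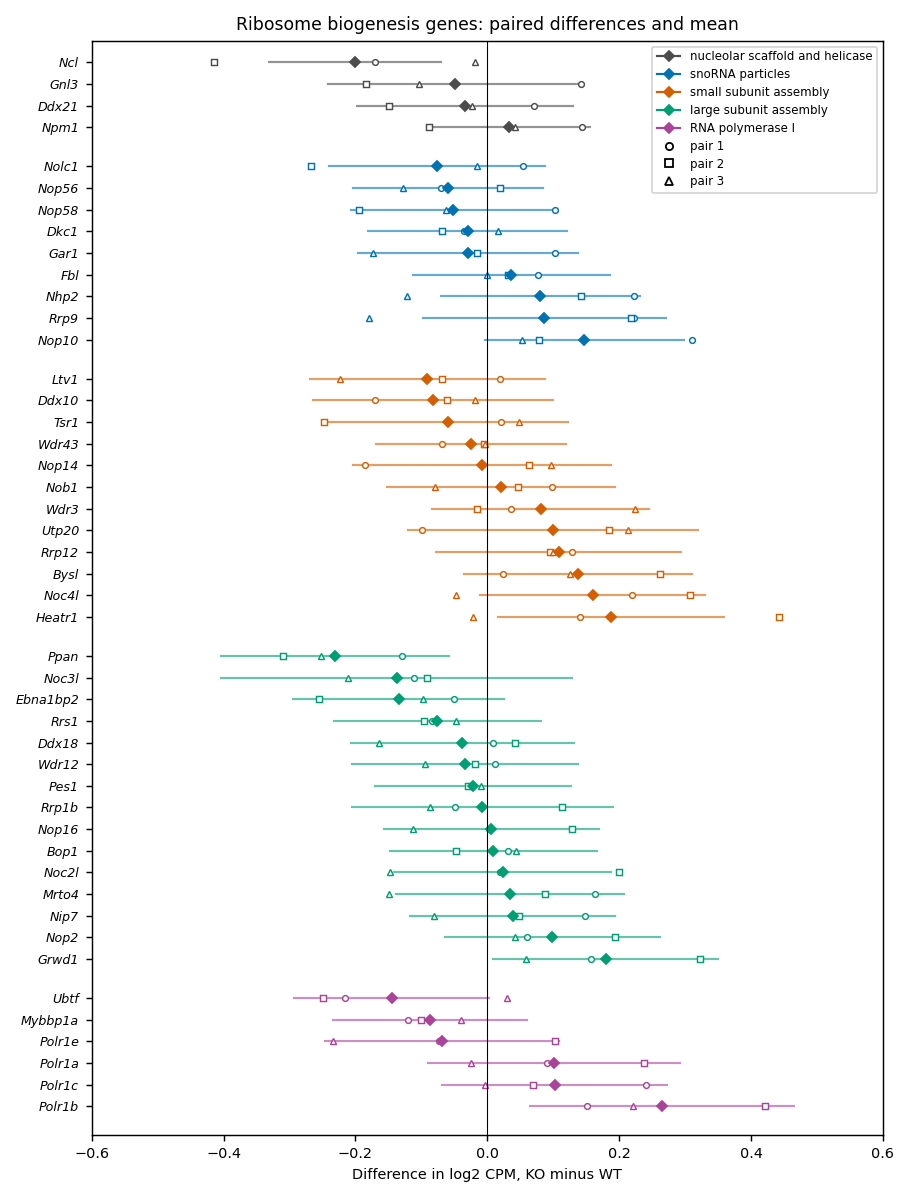
The difference in log2 CPM, KO minus WT, of each of the 46 genes, grouped by role. Open symbols are the 3 pairs, filled diamonds their mean and lines the limma 95% interval; means lie on both sides of 0 in each role group, and the largest single difference is 0.442, of Heatr1 in pair 2.

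The nucleolar scaffold and helicase group holds Npm1, Ncl, Gnl3 and Ddx21. Npm1 encodes nucleophosmin, an abundant nucleolar chaperone of ribosome assembly and export. It was at 896, 827 and 865 CPM in KO libraries 1 to 3, against 811, 879 and 840.4 CPM in WT libraries 1 to 3. The groups overlapped, with KO higher in pairs 1 and 3 and lower in pair 2, and the log2 fold change was 0.033 ± 0.12 (95% interval -0.091 to 0.16; limma adjusted p = 0.943). Ncl encodes nucleolin, an RNA-binding protein of ribosomal RNA transcription and early processing. It was at 756, 695 and 797 CPM in KO libraries, against 850.4, 925 and 807 CPM in WT libraries. Each KO library lay below each WT library, but by little in pair 3, where the log2 difference was -0.018, while pairs 1 and 2 were at -0.17 and -0.41. The log2 fold change was -0.20 ± 0.20 (95% interval -0.33 to -0.070; limma adjusted p = 0.236), and without pair 2 it was -0.094. Gnl3, the GTP-binding protein nucleostemin, differed by -0.049 ± 0.17, and Ddx21, an RNA helicase that links RNA polymerase I transcription with processing, by -0.034 ± 0.11. Both were higher in KO in pair 1 and lower in pairs 2 and 3.

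The snoRNA particle group holds the 9 proteins that carry or assemble the guide RNAs for ribosomal RNA modification. Box C/D particles methylate riboses through the methyltransferase fibrillarin (Fbl), held by Nop56 and Nop58. Nop56 was at 242, 249.7 and 237 CPM in KO libraries, against 254, 246 and 259 CPM in WT libraries. KO was lower in pairs 1 and 3 and higher in pair 2, the groups overlapped, and the log2 fold change was -0.060 ± 0.074 (95% interval -0.20 to 0.084; limma adjusted p = 0.889). Nop58 differed by -0.052 ± 0.15 and Fbl by 0.036 ± 0.039. Rrp9, a protein of the snoRNA particle that starts small subunit processing, was 0.22 higher in pairs 1 and 2 and 0.18 lower in pair 3, with a mean of 0.087 ± 0.23.

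Box H/ACA particles turn uridine into pseudouridine through dyskerin (Dkc1), with Nhp2, Nop10 and Gar1 as partners. Nop10, the smallest of these proteins, was higher in KO in all 3 pairs, by 0.31, 0.078 and 0.053, a log2 fold change of 0.15 ± 0.14 (limma adjusted p = 0.590). Nhp2 differed by 0.081 ± 0.18, Dkc1 by -0.030 ± 0.043 and Gar1 by -0.029 ± 0.14, each with pairs on both sides of 0. Nolc1, a chaperone of both kinds of particle, differed by -0.076 ± 0.17. Over the 9 genes 4 were positive and 5 negative, with a median of -0.029.

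The genes for particle proteins are themselves tied to snoRNAs, since vertebrate snoRNAs are mostly cut from introns of host genes. By the GENCODE M21 annotation 8 of the 46 genes hold a snoRNA gene on their own strand, 23 snoRNA genes in all. The hosts are Ncl, Nop56, Nop58, Dkc1, Gnl3, Wdr43, Tsr1 and Ppan. Of those inside Ncl, Nop56 and Nop58, 4 are shown as examples, namely the named snoRNAs in which a letter search found each box it looked for. For the box H/ACA snoRNA Snora75 only the ACA box was searched for, and the H box was not. The 4 sequences come from GENCODE transcripts on build GRCm38. Capitals mark the C box (ATGATGA or GTGATGA) near the start and the last CTGA as D box, or the last ACA as ACA box; earlier CTGA or ACA matches stay in lower case.
Snord82 in Ncl (chr1:86356261-86356330, minus strand): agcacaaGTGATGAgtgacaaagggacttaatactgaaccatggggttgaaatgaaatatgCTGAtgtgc
Snora75 in Ncl (chr1:86351169-86351301, minus strand): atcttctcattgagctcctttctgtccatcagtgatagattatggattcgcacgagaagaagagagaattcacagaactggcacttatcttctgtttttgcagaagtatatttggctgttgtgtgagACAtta
Snord110 in Nop56 (chr2:130275506-130275573, plus strand): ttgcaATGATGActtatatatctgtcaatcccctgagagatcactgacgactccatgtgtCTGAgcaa
Snord11 in Nop58 (chr1:59704790-59704873, plus strand): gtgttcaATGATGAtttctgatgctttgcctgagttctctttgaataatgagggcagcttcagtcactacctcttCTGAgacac

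All 8 host members had a negative mean difference, with a median of -0.056, while 22 of the 38 other members were positive, with a median of 0.023. The host grouping was made after the values had been seen and carries no test. The pairs of the hosts were less uniform: the number positive was 3, 1 and 2 in pairs 1 to 3. Of the 8 hosts 3 (Ncl, Ppan and Wdr43) were lower in all 3 pairs (37.5%, against 12.5% of all genes tested). Wdr43 was lower by only 0.005 and 0.003 in pairs 2 and 3. Outside the 46, 167 other tested hosts that are not ribosomal protein genes were split into 81 positive and 85 negative with a median of -0.0020. The 30 hosts among ribosomal protein genes were all positive, with a median of 0.12. A lower host messenger RNA does not tell the level of its snoRNA, which the files were not used to measure.

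Small subunit assembly is represented by 12 genes, from the early processome to the late cytoplasmic steps. Wdr43, a WD-repeat protein of the early complex, was at 234, 239 and 239 CPM in KO libraries, against 245, 239.9 and 239.7 CPM in WT libraries. KO libraries were lower in all 3 pairs but by 0.003 and 0.005 in pairs 3 and 2, and the log2 fold change was -0.025 ± 0.037 (95% interval -0.17 to 0.12; limma adjusted p = 0.961). Heatr1, a large scaffold of the processome that also serves RNA polymerase I transcription, had the widest spread between pairs of the 46 genes. It was at 92.9, 103 and 87.8 CPM in KO libraries, against 84.3, 75.9 and 89.1 CPM in WT libraries. KO was higher in pairs 1 and 2 and lower in pair 3, so the groups overlapped, and the log2 fold change was 0.19 ± 0.24 (95% interval 0.016 to 0.36; limma adjusted p = 0.484).

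Of the other small subunit genes, Rrp12 (0.11 ± 0.018) and Bysl (0.14 ± 0.12) were higher in all 3 pairs and Ddx10 (-0.083 ± 0.078) was lower in all 3, with none past 5% FDR. Rrp12 serves maturation and export of pre-ribosomes, Bysl is the late factor bystin, and Ddx10 is an RNA helicase. Noc4l and its partner Nop14 differed by 0.16 ± 0.18 and -0.0083 ± 0.15, and the processome members Utp20 and Wdr3 by 0.10 ± 0.17 and 0.081 ± 0.13. Among late factors, Nob1, the endonuclease that makes the mature end of the small subunit RNA, differed by 0.021 ± 0.092, Tsr1 by -0.060 ± 0.16 and Ltv1 by -0.091 ± 0.12. Those 7 genes had pairs on both sides of 0. In the group 7 genes were positive and 5 negative, with a median of 0.051.

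Large subunit assembly holds 15 genes. Pes1, Bop1 and Wdr12 form 1 complex that is needed for processing of the large subunit RNA, and its 3 genes had mean differences under 0.1 in size. Pes1 was at 192, 192 and 193 CPM in KO libraries, against 196, 196 and 194 CPM in WT libraries. The KO libraries were lower in each pair, and the log2 fold change of -0.022 ± 0.011 had the smallest SD of the 46 genes (95% interval -0.17 to 0.13; limma adjusted p = 0.969). Bop1 differed by 0.0093 ± 0.050 and Wdr12 by -0.034 ± 0.055.

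Ppan, a factor of large subunit RNA maturation, and Grwd1, a binding partner of the ribosomal protein Rpl3, lay at the ends of this group. Ppan was at 62.8, 59.0 and 60.2 CPM in KO libraries, against 68.7, 73.1 and 71.7 CPM in WT libraries. All KO libraries lay below all WT libraries, with differences of -0.13, -0.31 and -0.25, and the log2 fold change was -0.23 ± 0.092 (95% interval -0.40 to -0.058; limma adjusted p = 0.320). Grwd1 was at 76.3, 80.7 and 73.7 CPM in KO libraries, against 68.4, 64.6 and 70.8 CPM in WT libraries. All KO libraries lay above all WT libraries, by 0.16, 0.32 and 0.058 within pairs, and the log2 fold change was 0.18 ± 0.13 (95% interval 0.0082 to 0.35; limma adjusted p = 0.526).

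The rest of the large subunit group lay between -0.14 and 0.10. Noc3l (-0.14 ± 0.064), Ebna1bp2 (-0.13 ± 0.11) and Rrs1 (-0.076 ± 0.026) were lower in all 3 pairs, and the ribosomal RNA methyltransferase Nop2 (0.099 ± 0.083) was higher in all 3. In yeast Rrs1 brings the smallest ribosomal RNA and its proteins into the precursor, and Ebna1bp2 and Noc3l act in early large subunit particles. The other members differed by 0.038 ± 0.11 (Nip7), 0.034 ± 0.16 (Mrto4, which holds the place of the stalk protein), 0.024 ± 0.17 (Noc2l), 0.0063 ± 0.12 (Nop16), -0.0077 ± 0.11 (Rrp1b) and -0.038 ± 0.11 (the helicase Ddx18). Each of these 6 had pairs on both sides of 0. In the group 7 genes were positive and 8 negative, with a median of -0.0077.

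RNA polymerase I is represented by 4 subunit genes, the factor Ubtf and the co-repressor Mybbp1a. Polr1b, which encodes the second largest subunit of the enzyme, had the largest mean difference of the 46 genes. It was at 36.9, 40.6 and 37.8 CPM in KO libraries, against 33.3, 30.3 and 32.5 CPM in WT libraries. All KO libraries lay above all WT libraries, by 0.15, 0.42 and 0.22 within pairs, and the log2 fold change was 0.26 ± 0.14 (95% interval 0.064 to 0.46; limma adjusted p = 0.331). Its partner in the catalytic centre, Polr1a, differed by 0.10 ± 0.13, Polr1c, which RNA polymerase III shares, by 0.10 ± 0.13, and Polr1e by -0.068 ± 0.17, each with pairs on both sides of 0.

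Ubtf, the factor that binds ribosomal DNA and recruits the polymerase, was at 214, 211 and 233 CPM in KO libraries, against 248, 251 and 228 CPM in WT libraries. KO was lower in pairs 1 and 2 and slightly higher in pair 3, so the groups overlapped, and the log2 fold change was -0.15 ± 0.15 (95% interval -0.29 to 0.0019; limma adjusted p = 0.579). Mybbp1a, a nucleolar protein that represses RNA polymerase I, differed by -0.087 ± 0.042 and was lower in all 3 pairs. Of the 6 genes 3 were positive and 3 negative, with a median of 0.016.

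**Figure D2:**
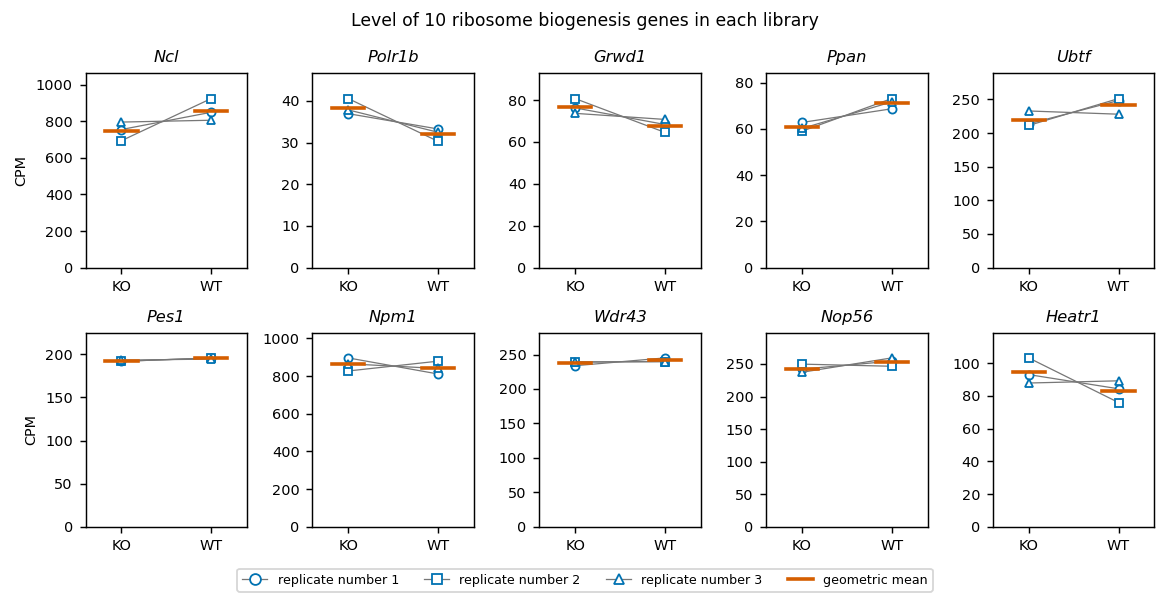
CPM in each KO and WT library of the 10 genes given by library, with lines joining libraries of the same replicate number and bars for the geometric mean of each group. Ncl and Ppan lie lower in all KO libraries, Polr1b and Grwd1 lie higher in all KO libraries, and in 4 of the other 6 the groups overlap.

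Counted over the 46 genes, 6 were higher in KO in all 3 pairs (13.0%, against 15.2% of all genes tested) and 9 lower in all 3 (19.6%, against 12.5%). With equal sums within replicate numbers, the same sign in all pairs also makes the groups non-overlapping. The other 31 genes had mixed signs. With number 1 left out, 16 genes were lower in both remaining pairs, a count that fewer pairs can only keep or raise. The pairs did not lean the same way: of the 46 genes 30, 24 and 14 were positive in pairs 1 to 3, with medians of 0.028, 0.026 and -0.024. Pair 2 held the largest difference for 23 genes, pair 1 for 14 and pair 3 for 9, and the number of differences over 0.2 in size was 6, 13 and 7 in pairs 1 to 3. The 7 nuclear and non-coding RNAs, listed as a sign of RNA quality, summed to 284 CPM in KO library 2 and 654 CPM in WT library 2. These were the lowest and the highest of the 6 libraries. Because KO and WT mirror each other, both extremes reflect the difference within pair 2 and cannot show the RNA quality of single libraries. The part of RNA quality in the differences of pair 2 was not tested. Nor was that of the naive and follicular B cell markers, which were higher in KO in pair 2 only.

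The differences within pairs were also set against transcript length. Across the 46 genes Spearman's rho of the difference with transcript length was -0.45, -0.051 and 0.29 in pairs 1 to 3, and across 10073 tested genes with a length it was -0.28, -0.084 and 0.27. Shorter genes thus tended to higher differences in pair 1 and longer genes in pair 3, with little relation in pair 2. Genes are not independent replicates, and the points of a pair share their libraries. The mean over pairs had a rho of -0.12 across the 46 genes. With the trend over length and GC content removed in each pair, 0 of the 46 genes were called and their median was -0.0064.

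Levels of single genes were set beside each other per kilobase of coding sequence, a scale that favours genes with short coding and long untranslated parts. On that scale Utp20 was lowest, at 3.29 CPM per coding kilobase in KO and 3.07 in WT libraries, followed by Noc3l at 5.86 in KO and 6.44 in WT. Npm1 was at 985 in KO and 962 in WT, and Nop10 at 1030 in KO and 930.04 in WT, with Nhp2 next at 459 in KO and 434 in WT. Ncl was at 353 in KO and 405 in WT. The polymerase subunits Polr1a (8.27 in KO, 7.71 in WT) and Polr1b (11.3 in KO, 9.39 in WT) lay low, beside 95.6 in KO and 106 in WT for Ubtf.

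Of 77 cytosolic ribosomal protein rows, which encode the proteins of both ribosomal subunits, 76 were tested. All 76 had a positive mean difference, with a median of 0.15 on the log2 scale, against -0.0080 for the 46 assembly genes. The untested row, Rpl26, was under the filter of 1 CPM, at 0.030 CPM in KO and 0.053 CPM in WT, and differed by -0.83 ± 0.85. Rps27 (1.74 CPM in KO, 1.68 in WT), Rpl30 (2.48 in KO, 2.19 in WT) and Rpl34 (19.6 in KO, 19.0 in WT) were also low. The median level of the tested rows was 514 CPM. Why these 4 rows were low was not tested. Past 5% FDR 5 rose: Rps28 (0.38 ± 0.12, limma adjusted p = 0.00113), Rps29 (0.33 ± 0.10, limma adjusted p = 0.00207), Rpl41 (0.26 ± 0.13, limma adjusted p = 0.0352), Rpl37a (0.26 ± 0.12, limma adjusted p = 0.0367) and Rps26 (0.27 ± 0.11, limma adjusted p = 0.0435). All 5 encode small ribosomal proteins. By pair the assembly genes had medians of 0.028, 0.026 and -0.024, and the ribosomal protein genes 0.14, 0.13 and 0.17. The assembly genes minus the ribosomal protein genes came to -0.12, -0.11 and -0.20 in the 3 pairs. This contrast of medians was not given a p-value, because the lists were chosen with results of these data known.

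Summed over genes, the ribosomal protein rows took 55243, 54806 and 55721 CPM in KO libraries, against 50462, 50889.9 and 50073 CPM in WT libraries. Each KO library lay above each WT library. The 46 assembly genes took 6247, 6079 and 6148 CPM in KO libraries, against 6161, 6347 and 6252 CPM in WT libraries. Here the groups overlapped, with KO higher in pair 1 and lower in pairs 2 and 3. The lists differ in length: the median transcript length was 2794.5 bases for the assembly genes and 886.5 bases for the ribosomal protein genes. With the trend over length and GC content removed the ribosomal protein median was 0.12, 73 of 76 remained positive and none was called. None was called without number 2 either, and 2 were without number 3. The lower sum of germinal centre B cell markers in KO libraries stood beside this higher ribosomal protein level, and its part in it was not tested.

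**Figure D3:**
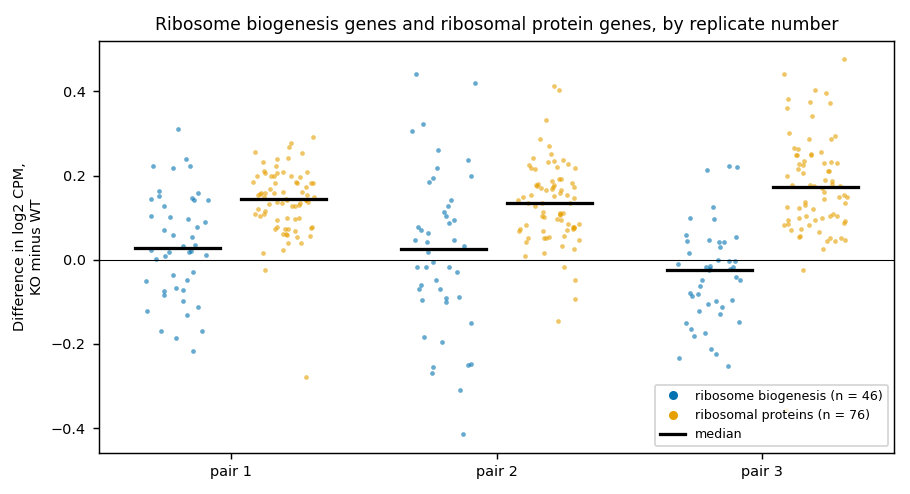
The difference in log2 CPM, KO minus WT, in each of the 3 pairs for the 46 assembly genes and the 76 tested ribosomal protein genes, 1 point per gene with the median as a bar. Medians of the assembly genes lie between -0.024 and 0.028, those of the ribosomal protein genes between 0.13 and 0.17.

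Other genes of the same pathway, from lists wider than the 46, also lay on both sides of 0. Of 129 further assembly, processing and polymerase genes tested, none passed 5% FDR, against 0.266% of all genes tested. At an unadjusted limma p under 0.05, 7 were higher and 7 lower, beside 8.82% of all genes tested in either direction. The median of the 129 was -0.0083, with 63 positive and 66 negative. The 43 further small subunit factors had a median of 0.035, the 49 further large subunit factors one of -0.014, the 15 further RNA polymerase I genes one of 0.0057, and the 9 genes of snoRNA particle assembly one of -0.038. Myc was at 103, 109 and 106 CPM in KO libraries, against 103, 97.5 and 100.3 CPM in WT libraries. It was higher in KO in all 3 pairs by small amounts, with a log2 fold change of 0.080 ± 0.073 (95% interval -0.083 to 0.24; limma adjusted p = 0.857). Of the 14 proliferation genes 7 were positive and 7 negative, with a median of -0.012.

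**Figure D4:**
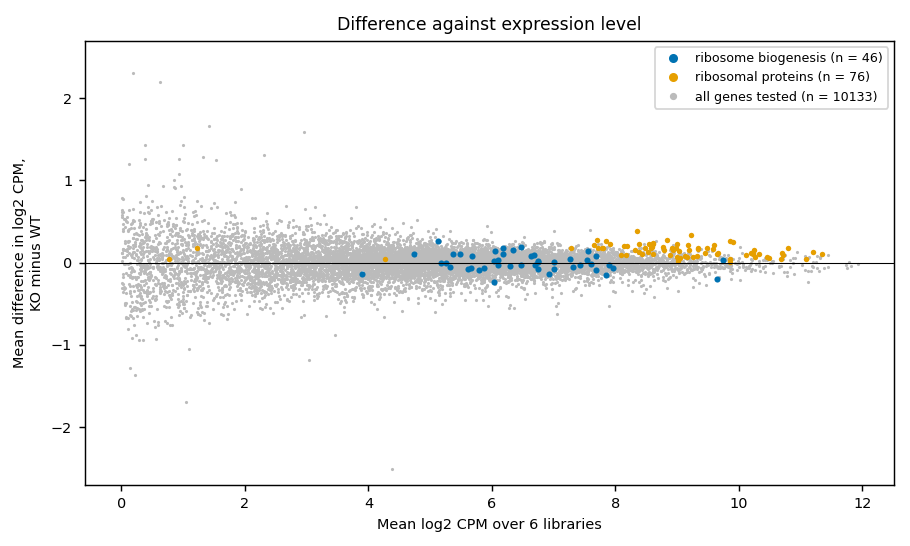
Mean difference in log2 CPM, KO minus WT, against the mean level over 6 libraries for all 10133 genes tested, with the 46 assembly genes and the 76 ribosomal protein genes marked. The assembly genes scatter around 0 within -0.23 and 0.26, and all 76 ribosomal protein genes lie above 0.

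MYC and its relatives bind the E-box CACGTG, which reads the same on both strands. RefSeq start-site windows (GRCm38.p6) of 250 bases before and 50 bases from the start were given for 41 of the 46 genes, and 8 of these (19.5%) held CACGTG. The share was 12.6% among tested genes with a window, 10.5% among 57 ribosomal protein genes, and 8.09% among all 27025 genes with a window. The 8 sites are shown with their flanks because the genes were chosen as being of the MYC-target type and MYC binds this motif. CACGTG is in capitals and the other bases are in lower case.
Nop2 (chr6:125131813-125131838, plus strand): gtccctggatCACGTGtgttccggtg
Pes1 (chr11:3963967-3963992, plus strand): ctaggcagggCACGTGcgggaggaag
Wdr43 (chr17:71616222-71616247, plus strand): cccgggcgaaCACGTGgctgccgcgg
Tsr1 (chr11:74898094-74898119, plus strand): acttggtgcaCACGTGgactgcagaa
Ltv1 (chr10:13193094-13193119, minus strand): cctgtggaccCACGTGtggagctgcc
Grwd1 (chr7:45830740-45830765, minus strand): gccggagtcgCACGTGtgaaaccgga
Utp20 (chr10:88826765-88826787, minus strand): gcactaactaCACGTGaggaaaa
Mybbp1a (chr11:72441357-72441376, plus strand): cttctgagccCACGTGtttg

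The site of Nop2 lay 60 bases before the annotated start, and the other 7 lay from 2 to 40 bases after it. The last 2 sequences stop early because the window ends there. The 8 genes with the motif had 3 positive and 5 negative mean differences and a median of -0.024, and the 33 genes with a window and no match had 15 positive and 18 negative with a median of -0.0083. A match of letters is a description and does not show binding, and no match says only that these letters are not in that window.

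Apart from the snoRNA genes inside them, exons of 20 of the 46 genes shared bases with another annotated gene. The share was 32.3% of the exon bases of Tsr1 (with Srr), 20.9% of those of Noc2l (with Samd11), 15.7% of those of Wdr3 (with Spag17) and 9.37% of those of Bysl (with Ccnd3), all on the opposite strand. No source used here says whether counting used the strand, so reads of these genes and their neighbours may not be separable. By the GENCODE M21 annotation, snoRNA genes also overlapped exons of Ncl, Nop56, Nop58, Gnl3 and Ppan, on the same strand. Npm1 is also known to have many processed copies in the mouse genome, among which reads could be divided.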

How the data were processed

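The submitters' processing notes name build mm10 and, without roles or settings, STAR 2.6.1a, Subread 2.0.1, featureCounts, limma, FastQC 0.11.7 and Trim Galore 0.6.5. The authors deposited log2 CPM for each gene and library, which summed to between 997617 and 1000513 on the linear scale. An adjustment across libraries left equal KO plus WT sums in all replicate numbers, so the fit kept the replicate number as a block: without it, degrees of freedom already used would count as free. This also means that the values cannot show whether the numbers pair the libraries.

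The KO against WT fit used limma 3.58.1 (R 4.3.3; genotype and replicate number, variance trend, robust empirical Bayes, two-sided, Benjamini-Hochberg over 10133 genes whose mean reached 1 CPM and whose values were unequal). The fit was tested on simulated data. It has 2 residual and a median of 81.2 prior degrees of freedom per gene, so most of the information on spread came from other genes. The genes and lists were chosen with earlier results of these data known. Of 23420 symbols, 21777 matched GENCODE M21 directly and 1276 through older symbols. Lengths are those of the longest APPRIS principal transcript, or of the longest one where none is marked.

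Values of each library are printed for Basp1 and Myc and, among the 46 genes, for those past 5% FDR, for genes with 1 sign in all pairs and a mean of at least 0.15 in size, for the gene with the highest CPM in each role group, and for the gene with the largest SD. Alternatives left out each replicate number, the block, the filter, the variance trend or robust estimation, set the filter at 4 CPM, added 1 CPM before log2, centred the pairs, or removed the trend over length and GC content.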

Additional observations from a re-analysis of the deposited data

How the results depend on the processing

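The count of 0 called assembly genes held under all 8 alternatives that kept 3 replicate numbers, and it was between 0 and 1 when a number was left out. The number of genes called over the whole table, 27, was less stable. It was 142 with no replicate block, 95 with no filter on low values, 12 with non-robust empirical Bayes, 4 with the length and GC trend removed, and 0 with no variance trend, where 640 genes had an unadjusted p under 0.05. It ran from 11 to 136 when a replicate number was left out. The count of assembly genes lower in all pairs used, 9 with 3 numbers, then ran from 11 to 16, which says nothing about stability because fewer pairs can only keep or raise it. The ribosomal protein median was 0.1158 with the length and GC trend removed. In that fit Rrp1b was at 0.0091, and the other 45 genes kept their sign. Under the remaining settings with 3 numbers all 46 kept it.

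When a number was left out, 29 genes kept their sign in each fit and 17 did not. The 17 are genes near 0, and their ranges were -0.023 to 0.093 (Npm1), -0.129 to 0.02 (Nop58), -0.061 to 0.08 (Nop14), -0.055 to 0.066 (Nop16), -0.1415 to 0.0195 (Nolc1), -0.0945 to 0.043 (Gar1), -0.008 to 0.038 (Bop1), -0.068 to 0.032 (Rrp1b), -0.144 to 0.019 (Gnl3), -0.086 to 0.024 (Ddx21), -0.078 to 0.0255 (Ddx18), -0.114 to 0.034 (Tsr1), -0.017 to 0.072 (Nob1), -0.154 to 0.0145 (Polr1e), -0.0165 to 0.098 (Nip7), -0.031 to 0.1255 (Mrto4) and -0.0645 to 0.1095 (Noc2l). With the replicate effect removed before deposit, a fit with no replicate block gives p-values that are too small. Its lowest limma adjusted p among the 46 was 0.0542, of Ppan. The read depth behind the values is unknown, and the cause of these changes was not tested.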

Other observations

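Of the further lists, the RNA exosome, which trims and degrades ribosomal RNA precursors, had 13 of 15 genes negative, with a median of -0.048 on the log2 scale. Its medians were 0.082, -0.10 and -0.10 in pairs 1 to 3, so pair 1 went the other way, and 0 of its genes had an unadjusted limma p under 0.05. A list of 26 other MYC-type targets, for metabolism, chaperones and growth, had 22 positive and a median of 0.048. Its pair medians were 0.11, 0.12 and -0.072, with 22, 23 and 6 genes positive. Of 10 tested genes of the MYC network 8 were positive, with a median of 0.065. Over all genes tested the median was 0.0037, and 0 genes of the 3 lists passed 5% FDR. These medians were given no test.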
